A study of Mus musculus with 2 samples.

Results

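The regions described here are distal accessible regions of the mouse cell line G1E that carry an AP-1 element at their summit and no GATA element. They were chosen by position and sequence alone, from lists of peaks of ATAC-seq, an assay that finds open chromatin by where a transposase can insert adapters. The peaks of both replicates were merged into 25799 regions, of which 13952 lay over 1000 bp from every annotated transcription start site and were called distal. Within 100 bp to each side of the strongest summit, the window had to hold TGACTCA or TGAGTCA, which are reverse complements of each other, and no A or T followed by GATA and then A or G on either strand. These criteria were met by 731 regions, 5.24% of the distal regions. They are called the members below.

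G1E is an erythroid progenitor line that lacks GATA1, per the labels from male C57BL/6J mouse cells of postnatal age, 0 days. There were 1 group and 2 biological replicates, each made from 50000 cells, and no treatment, time course or GATA1-restored line was analysed here. As a model it is limited to 1 line, and the labels do not give whether separate cultures were used. Since only peak lists were used, library depth is unknown, and an unlisted region may still be open. With 2 libraries of 1 group no test between samples is possible and regions are not replicates, so values are given as descriptions, beside the same values in other distal regions, and none of the differences was tested.

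AP-1 is a family of dimers of FOS, JUN, ATF and BATF proteins that bind the short palindrome used here. The same core lies inside a longer element, in which it is preceded by TGC, and which is bound by dimers of a small MAF protein with NF-E2, NRF1, NRF2 or the repressor BACH1. In red cell precursors NF-E2 is known for its role at globin genes, and BACH1 for holding heme oxygenase and other heme and stress genes low until heme displaces it. GATA factors bind the element that was excluded here, and GATA1 and GATA2 occupy many erythroid enhancers. A match to such letters is a property of the sequence and does not show that a factor was bound.

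The first sequences are those of the members listed in both replicates near Hmox1, Bach1 and Abcc1, shown because these genes belong to the heme and oxidative stress programmes named above. Each is the 201 bases around the summit on the plus strand of mm10, taken from the RefSeq assembly of that build, with the AP-1 matches in capitals.
Hmox1, chr8:75083960-75084160: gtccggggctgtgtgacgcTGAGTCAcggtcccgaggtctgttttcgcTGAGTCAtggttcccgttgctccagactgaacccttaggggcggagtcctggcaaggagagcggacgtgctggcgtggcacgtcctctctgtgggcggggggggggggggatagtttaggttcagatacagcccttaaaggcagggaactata
Bach1, chr16:87713107-87713307: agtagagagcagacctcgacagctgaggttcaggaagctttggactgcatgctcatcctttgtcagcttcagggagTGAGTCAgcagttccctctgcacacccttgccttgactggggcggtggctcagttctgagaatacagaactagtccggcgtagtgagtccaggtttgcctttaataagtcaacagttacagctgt
Abcc1, chr16:14350869-14351069: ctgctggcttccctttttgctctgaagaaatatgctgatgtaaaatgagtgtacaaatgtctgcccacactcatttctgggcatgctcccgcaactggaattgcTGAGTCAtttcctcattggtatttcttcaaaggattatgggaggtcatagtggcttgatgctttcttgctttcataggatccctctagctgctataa
The AP-1 match near Abcc1 is preceded by tgc, and that in Bach1 is followed by gca, which is tgc on the minus strand. Both are therefore extended NF-E2 elements. The 2 matches upstream of Hmox1 are each preceded by cgc, so they carry the gc of the extended element but not its first base.

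A further pair shows strong members in which the AP-1 match sits close to the summit, 3 bp from it in the region in an intron of Miga1 and 21 bp from it in a region whose nearest protein-coding start site, that of Scg2, is 242 kb away. In the latter the match is preceded by tgc, and a second tgctgact follows it that stops short of a full core.
Miga1, chr3:152315725-152315925: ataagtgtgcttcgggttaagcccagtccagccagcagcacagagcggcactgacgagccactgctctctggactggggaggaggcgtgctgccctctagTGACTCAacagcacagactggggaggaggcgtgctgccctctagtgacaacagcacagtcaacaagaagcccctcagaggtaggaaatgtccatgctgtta
Scg2 flank, chr1:79197801-79198001: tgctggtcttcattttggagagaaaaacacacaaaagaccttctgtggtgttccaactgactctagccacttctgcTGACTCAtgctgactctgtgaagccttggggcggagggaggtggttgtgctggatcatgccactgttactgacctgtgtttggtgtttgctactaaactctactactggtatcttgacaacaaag

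The last set shows 4 of the 12 members with 3 or more AP-1 matches in the window, since such repeats were uncommon: the one with the most and 3 of those with 3 matches. The region in an intron of Atxn1 holds 9, that near Cetn3 holds 3 with centres 13 bp apart, and those near Usp7 and in an intron of Oxr1 hold 3 each.
Atxn1, chr13:45623949-45624149: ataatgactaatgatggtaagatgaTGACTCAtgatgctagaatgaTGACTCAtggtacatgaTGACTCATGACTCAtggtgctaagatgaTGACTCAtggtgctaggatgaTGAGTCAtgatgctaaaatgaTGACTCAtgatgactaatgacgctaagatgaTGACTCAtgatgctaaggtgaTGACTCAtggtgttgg
Cetn3, chr13:81852702-81852902: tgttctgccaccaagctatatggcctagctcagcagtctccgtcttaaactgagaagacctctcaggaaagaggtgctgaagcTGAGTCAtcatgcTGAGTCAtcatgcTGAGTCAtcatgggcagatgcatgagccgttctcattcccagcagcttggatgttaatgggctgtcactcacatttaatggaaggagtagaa
Usp7, chr16:8810875-8811075: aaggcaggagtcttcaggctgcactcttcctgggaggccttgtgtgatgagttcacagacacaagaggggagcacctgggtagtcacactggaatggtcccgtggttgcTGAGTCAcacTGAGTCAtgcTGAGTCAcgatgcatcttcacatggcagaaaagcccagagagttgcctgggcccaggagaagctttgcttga
Oxr1, chr15:41612336-41612536: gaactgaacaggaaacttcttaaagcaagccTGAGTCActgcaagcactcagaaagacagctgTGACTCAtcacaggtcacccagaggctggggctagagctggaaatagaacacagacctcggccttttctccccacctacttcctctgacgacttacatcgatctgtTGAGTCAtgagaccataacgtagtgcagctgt

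Of the members, 522 were listed in replicate 1 and 600 in replicate 2, which was 4.89% and 5.21% of the distal regions of each. The other distal regions fell into 890 with both elements, 7701 with GATA and no AP-1 element, and 4630 with neither. An AP-1 element was thus found at 1621 distal summits (11.6%), and 45.1% of those lacked a GATA element, beside 38.4% of all distal regions. AP-1 occurred at 13.6% of the distal summits without GATA and at 10.4% of those with it. In 27146 control windows of the same length, 2000 bp away from a distal summit and outside every listed region, AP-1 without GATA was found in 2.33%. At 11847 promoter regions, which lie within 1000 bp of a start site, the share was 2.63%. It was 3.37% in RefSeq promoter sequences of the assembly GRCm38.p6, which are longer, at 300 bp.

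In both replicates 391 members (53.5%) were listed, beside 59.0% of all distal regions. The share was lower than in the regions with both elements, of which 67.4% were listed in both, and those with GATA alone, at 66.1%, and higher than in those with neither, at 46.4%. The exact 95% Clopper-Pearson interval was 49.8 to 57.2% for the members, 64.2 to 70.5% for regions with both elements and 44.9 to 47.8% for those with neither, where the intervals cover counting error only. A list called over both replicates by the authors overlapped 429 members (58.7%), beside 63.5% of all distal regions. The order of the 4 classes was the same there, with 70.7% of the regions with both elements, 68.9% of those with GATA alone and 53.8% of those with neither.

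The signal of a peak is the authors' enrichment value and is not scaled between the libraries, so levels are given as percentiles within a replicate's own list, where 100 is the strongest region. The median member had a signal of 6.84 in replicate 1 and 7.86 in replicate 2, and the strongest reached 19.0 and 21.1. The median percentile was 35.1 in replicate 1 and 39.2 in replicate 2, a mean of 37.1 ± 2.93 (SD, n = 2). Regions with both elements had medians of 48.2 and 46.2, and regions with GATA alone of 46.3 and 45.5. Regions with neither element were at 33.9 and 35.5. In each replicate the members' median was therefore below that of both classes with GATA and above that of regions with neither. The median of all other distal regions was 42.2 and 41.6. The difference between members and those, -4.79 ± 3.36 points (SD, n = 2), turned to 3.10 points in the authors' more lenient lists.

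**Figure D1:**
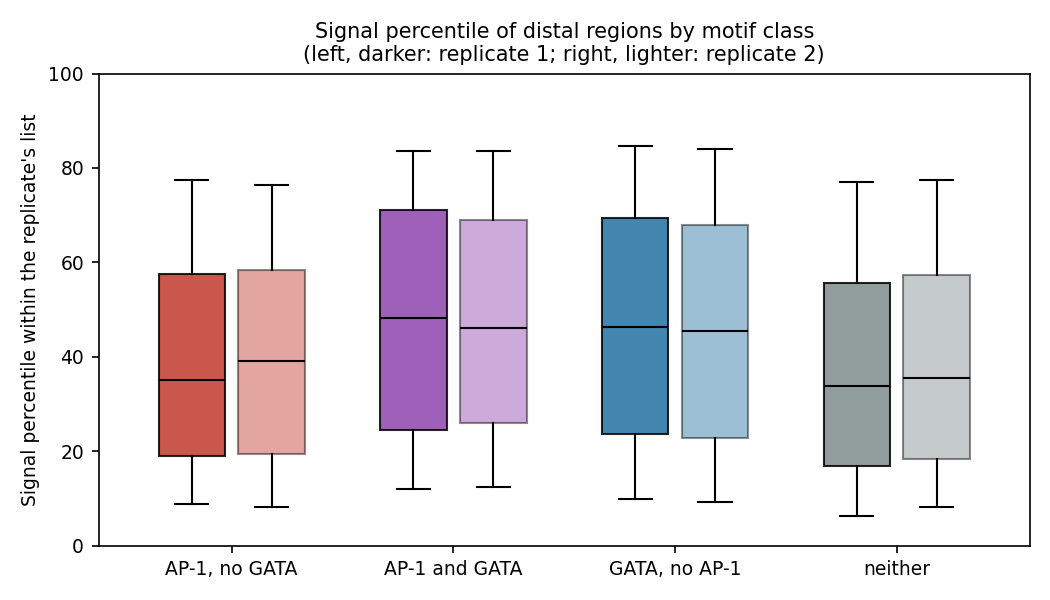
Signal percentile within each replicate's own list (vertical axis) for distal regions of the 4 motif classes, with the median as a line, the quartiles as a box and the range of the middle 80% of regions as whiskers. The members, at the left, have medians of 35.1 and 39.2, and their boxes overlap those of every other class.

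Strong members were few. Only 26 of the 731 (3.56%) reached the strongest 10% of a replicate's list in at least one replicate, beside 5.29% of all distal regions. The share was close to that of regions with neither element, at 3.37%. It was 6.85% in regions with both elements and 6.43% in those with GATA alone.

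Listing in both replicates was also read by strength. When the distal regions were split into 4 equal groups by their highest percentile in either replicate, the share of members listed in both was 13.3% in the weakest group, 44.7% in the second, 75% in the third and 94.7% in the strongest. Regions with GATA alone had 18.5, 51.4, 84.1 and 98.1% in the same groups, and regions with neither element had 11.9, 35.8, 67.4 and 95.3%. The members thus lay between those classes in each of the first 3 groups and slightly below both in the strongest. Part of the rise is fixed by the grouping, since the highest percentile is taken over 2 values for a region listed in both and over 1 value otherwise. The members made up 5.62, 5.91 and 5.62% of the distal regions in the first 3 groups and 3.81% in the strongest.

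**Figure D2:**
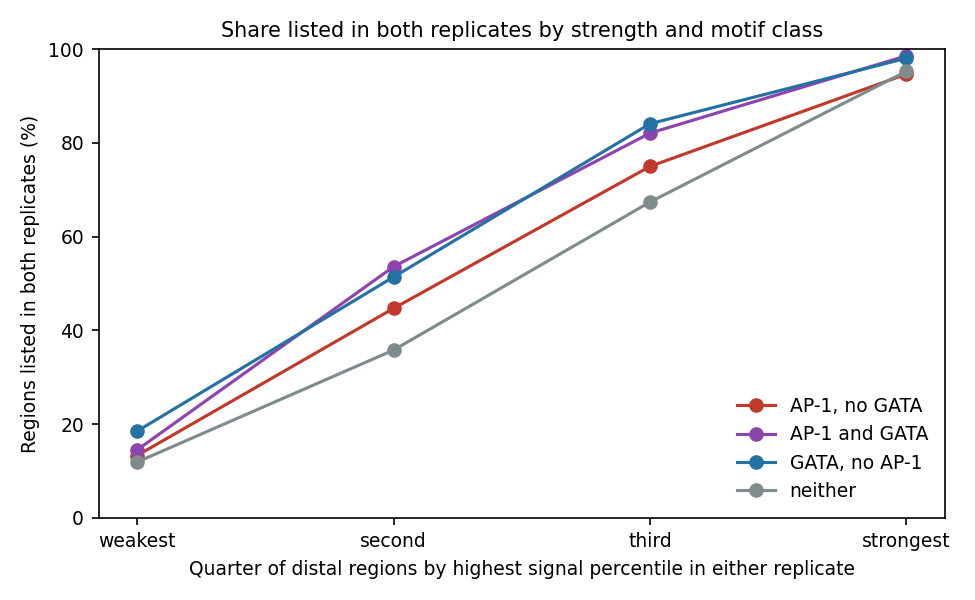
Share of distal regions listed in both replicates (vertical axis, percent) in 4 equal groups by signal percentile (horizontal axis), with 1 line for each motif class. All 4 lines rise, from 13.3 to 94.7% for the members, in part because the highest of 2 percentiles places regions listed in both in stronger groups.

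Members found in a single list were weak there, as were such regions of the other classes. Replicate 1 alone listed 131 (17.9%), with a median percentile of 17.1, while members of replicate 1 that were shared had a median of 43.9. Replicate 2 alone listed 209 (28.6%), at a median of 22.5 against 49.9 for shared ones. In the other classes replicate 1 alone listed 13.8 to 21.7% of regions, at median percentiles of 16.4 to 17.9. Replicate 2 alone listed 18.5 to 31.9% of them, at medians of 19.2 to 21.2. Of those single-list members, 77 of the 131 and 97 of the 209 overlapped a peak in the other replicate's more lenient list. Counting these, 565 members (77.3%) had a peak in both libraries and 166 did not, beside 72.9% of regions with neither element, 86.4% of those with both and 86.7% of those with GATA alone.

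Among the members listed in both, the percentiles of the libraries lay on both sides of equality. The summits of the 2 replicates were 20 bp apart at the median. The strongest summit came from replicate 2 in 276 of the 391 and from replicate 1 in 115, where the signals compared were not scaled between libraries. When each replicate's own summit was used in place of the strongest, 352 still met the rule in replicate 1 and 371 in replicate 2. These counts include the 115 and 276 regions, respectively, whose strongest summit was that replicate's own. Those meet the rule by construction, so only the remaining regions were checked.

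**Figure D3:**
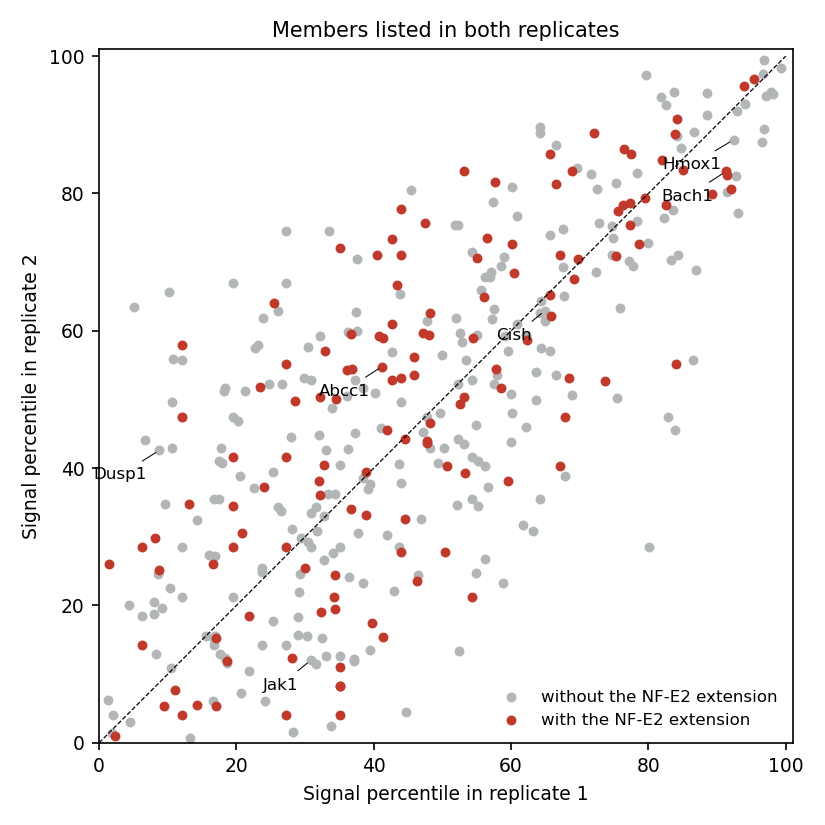
Signal percentile in replicate 1 (horizontal axis) and replicate 2 (vertical axis) of the 391 members listed in both, each point a region and the dashed line equality. Regions near genes of the fixed lists are labelled, and Hmox1 and Bach1 lie near the upper right corner.

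The strongest 10 members listed in both were outside exons in 9 cases. The top one was an intergenic region 13.9 kb from the start of Actb, the gene of beta-actin, at chr5:142920666-142921331, with signals of 19.0 and 19.4. Its only AP-1 match was centred 97 bp from the summit, the farthest that the window allows. The next was at chr1:87637365-87637896 in an intron of Inpp5d, which encodes the inositol phosphatase SHIP1 of blood cells, with 16.6 and 21.1 and the match 68 bp from the summit. Thus both had their AP-1 match away from the summit.

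A further 7 of the 10 were at mean percentiles from 93.1 to 96.3. An intergenic region at chr13:75797762-75798198, 41.7 kb from the start of the glutaredoxin gene Glrx, had signals of 17.7 and 17.0. The Miga1 region printed above, at chr3:152315679-152316074, had 17.3 and 17.1, and the region far from Scg2, at chr1:79197556-79198200, had 15.9 and 18. An intergenic region 10.1 kb from the nearest start of Gtf2ird1 had 16.8 and 16.8. They further comprised an exon of the helicase gene Helz, with 15.2 and 17.5, an intergenic region near Nlgn3, with 15.3 and 16.4, and a region 6.05 kb from Zfp869, with 16.6 and 15.2. Of these 10, only the Helz and Scg2 flank regions had the extended NF-E2 element.

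Within the window the AP-1 match was nearer to the summit than in control sequence. The nearest match was centred a median of 29 bp from the summit, and in 313 members (42.8%) it lay within 25 bp. Several matches in a window bring the nearest one closer by construction. The share was 38.5% in the 634 members with a single match and 70.6% in the 85 with 2. Measured from each replicate's own summit, the share within 25 bp was 39.8% of 498 in replicate 1 and 42.8% of 589 in replicate 2. Left out were 24 and 11 members with no AP-1 match in the window around that summit. For 246 and 485 members that summit is also the strongest one, so these shares are not independent of the first. Control windows with AP-1 and no GATA had a match within 25 bp of their centre in 28.6% of 632. An even spread of a single match over the positions it can take gives 26.2%. In regions with both elements the share for AP-1 was 37.0%, and for GATA in regions with GATA alone it was 46.5%, again for the nearest match where there were several.

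**Figure D4:**
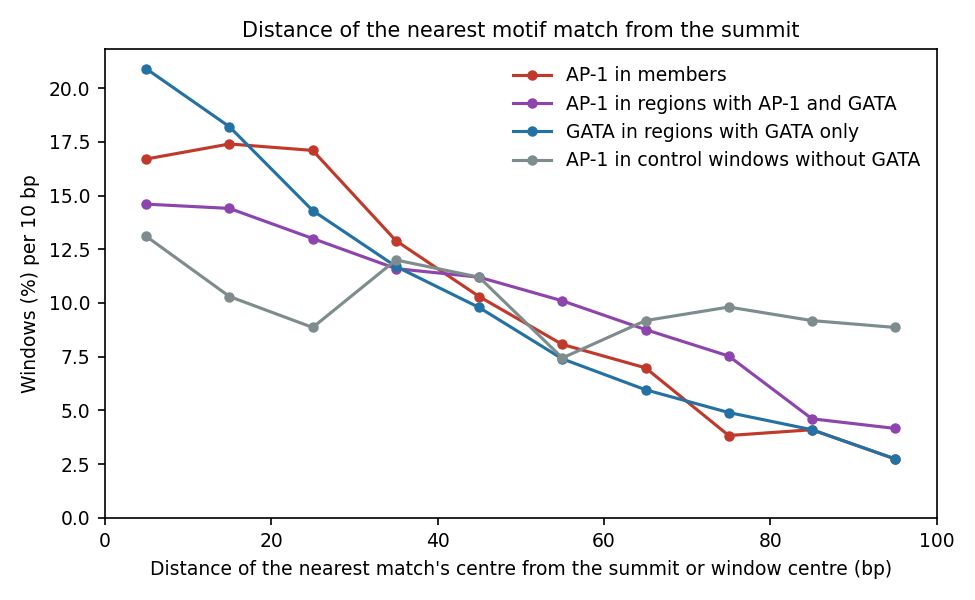
Share of windows (vertical axis, percent per 10 bp) by the distance of the nearest match's centre from the summit or, for control windows, from the window's centre (horizontal axis, bp). AP-1 in the members falls from 16.7% in the first 10 bp to 2.74% beyond 90 bp, where an AP-1 centre can reach only 97 bp, while control windows go from 13.1 to 8.86%.

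The share with a match close to the summit was also compared within the members. It was 44.5% within 25 bp in members listed in both replicates and 40.9% in those listed in one. In 4 equal groups of the members by percentile, from weakest to strongest, it was 41.5, 38.3, 44.5 and 47.0%. The rise was not steady, each group held only 182 or 183 members, and a trend was not tested. It was 47.5% in members with the extended NF-E2 element and 40.5% in those without. Of the members with a match to CTCF, the insulator protein, AP-1 lay within 25 bp in 6 of 27 (22.2%), while the CTCF match itself did in 16 (59.3%). At the limit of the window, 18 members had their nearest match centred 91 to 97 bp away, and 55.6% of them were listed in both, beside 64.3% of 14 GATA-free regions with the nearest match 98 to 104 bp away, which were left out.

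The bases next to the core were not part of the rule. An AP-1 match preceded by TGC, the extended NF-E2 element, was found in 240 members (32.8%). Among the members listed in replicate 1 it was 33.1%, and in replicate 2 33.2%. Both shares were read in the same windows and 391 members count in both, so their closeness is no replication. The exact 95% Clopper-Pearson interval of the pooled share was 29.4 to 36.4%. Regions with AP-1 and GATA had it in 161 of 890 (18.1%, 15.6 to 20.8%). Control windows with AP-1 and no GATA had it in 48 of 632 (7.59%, 5.65 to 9.94%), and those with AP-1 and GATA in 16 of 264 (6.06%). Promoter regions with AP-1 and no GATA had it in 47 of 311 (15.1%). The share in the members was thus the highest of these groups. The intervals cover counting error only, regions of 1 line are not independent replicates, and the differences were not tested.

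**Figure D5:**
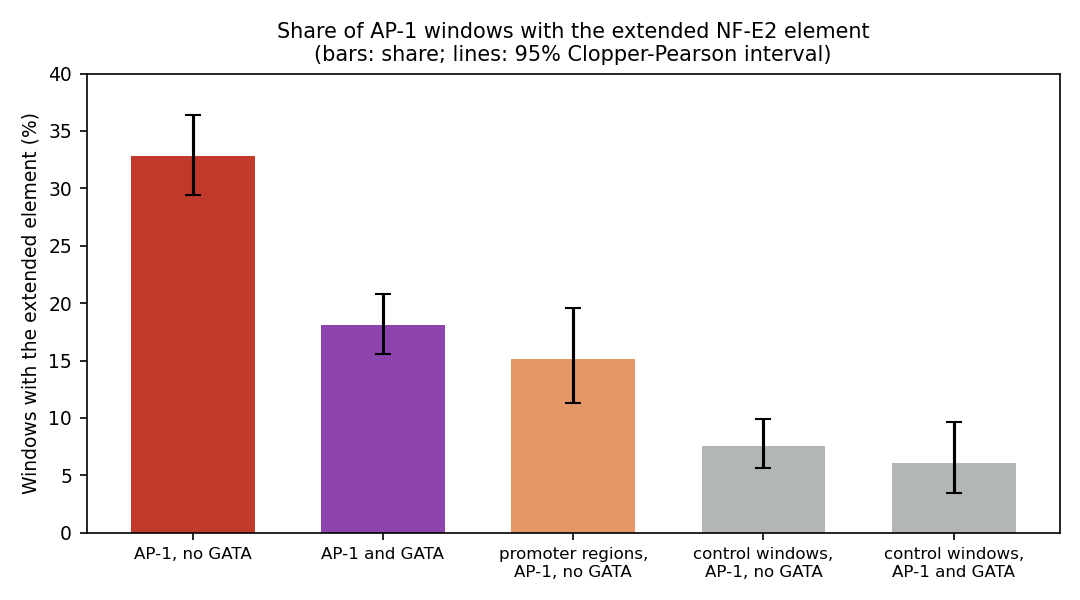
Share of AP-1 windows in which a match is preceded by TGC (vertical axis, percent) in distal regions, promoter regions and control windows, with exact 95% Clopper-Pearson intervals as lines. The members, at 32.8%, are the highest of the 5 bars, and the control windows are at 7.59 and 6.06%.

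Counted by match, 262 of the 849 matches in the members (30.9%) were next to TGC, beside 18.6% of 958 in regions with both elements and 7.10% of 915 in control windows. The last 2 bases of the extension, GC, were next to 46.6% of the members' matches, 34.0% of those with GATA and 15.2% of those in control windows. A single match had TGC on both sides. A on both sides of the core was found at 8.13% of matches, beside 6.58% in regions with both elements and 4.92% in control windows. T next to the core made up 6.01% of flanks, beside 9.19% with both elements and 19.9% in control windows. C stood there in 38.4%, beside 37.6 and 32.2%.

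Members with and without the extension differed little in strength. Those with it were listed in both replicates in 132 of 240 (55.0%), and those without it in 259 of 491 (52.7%). Their median percentiles were 36.7 and 41.6 in replicates 1 and 2 with the extension, and 33.9 and 36.9 without it. The strongest with it, after the 2 regions above, was an intergenic region 21.7 kb from the start of the adaptor gene Dok2, with signals of 12.7 and 15.6. Next came the Bach1 intron and an intron of Fnip2, a folliculin-interacting protein, with 14.4 and 13.6. A region in introns of Mvp, the major vault protein, and Pagr1b had 13.8 and 13.1. The Dok2, Fnip2 and Mvp regions were named from a ranking made after the values were known.

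More than 1 AP-1 match was found in 97 members. There were 85 with 2 matches, of which 61.2% were listed in both replicates, and 12 with 3 or more, of which 8 were, beside 52.2% of the 634 with a single match. Neighbouring matches had centres a median of 31.5 bp apart, and 26 members had a pair at 20 bp or less. The number of matches did not go with strength in every case. The Atxn1 intron, with 9 matches, was listed in replicate 1 only, with a signal of 4.56 at percentile 6.20. In that window 5 of the neighbouring pairs are 21 bp apart, in a tandem repeat.

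The remaining members with 3 or more spread over the whole range. The Oxr1 intron, in a gene known for protection from oxidative damage, was the strongest, with signals of 13.7 and 17.0 in a region 97.9 kb from the nearest start site. The Cetn3 region had 11.4 and 14.4, an intergenic region 123 kb from Gadd45g had 11.1 and 11.9, the Usp7 region had 8.77 and 11.9, and an intron of Fars2 with 4 matches had 7.59 and 12.6. An intron of Jazf1 with 4 matches had 5.13 and 8.64, a region 8.43 kb from Cyp2g1 with 4 had 6.27 and 4.61, and one near Irf2bp2 with 3 had 5.93 and 7.61. The other 3 were listed once, in an intron of Itpr3 (4.87 in replicate 1), in an exon of D430041D05Rik (8.54 in replicate 1) and 257 kb from Zpld1 (5.76 in replicate 2).

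A second motif in the same window was searched for as an exact string on either strand. The RUNX core, TGTGGT or TGCGGT, was found in 185 members (25.3%). Among the members listed in each replicate it was 25.7%, read in the same windows and largely in the same regions. The share over all members is the one compared next. It was close to the share in regions with both elements (24.3%), with GATA alone (25.6%) and with neither (26.3%), and above that in windows beside the members (17.0%). The ETS core GGAAGT was found in 25.6% of members against 13.2% beside them, and its longer PU.1 form, GAGGAAGT, in 7.25% against 1.40%. RUNX and ETS factors act together with GATA factors in blood progenitors, and PU.1 is the ETS factor of myeloid cells. The shares of ETS and PU.1 in regions with neither element were 27.2 and 7.41%. None of these was therefore more frequent in the members than in every other class.

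E-boxes of the form CAGATG or CAGCTG, bound by TAL1 and related factors, were found in 36% of members and 22.4% of the windows beside them, and in 30.8% of regions with neither element and 39.1% of those with both. The KLF string, CCNCNCCC, was found in 27.2% of members, between 19.9% with both elements and 33.5% with neither. A CTCF match was found in 27 members (3.69%), against 0.112% of regions with both elements, 2.29% with GATA alone and 11.3% with neither. The MYB string, T or C followed by AACGG or AACTG, was as frequent in the members as beside them, at 21.8%, and lower than in regions with GATA alone, at 29.7%. The cyclic AMP element TGACGTCA was found in 6 members (0.821%). Strings for STAT (TTCNNNGAA), C/EBP (TTGCNNAA), TEAD (GGAATG), IRF and NF-Y (CCAAT) were within 3 percentage points of the windows beside the members. Every PU.1 match is also an ETS match, so those shares overlap. Without a RUNX, ETS, E-box, KLF or CTCF match there were 197 members (26.9%), of which 47.2% were listed in both replicates.

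The exclusion of GATA covers the window and not the whole region. A GATA match lay elsewhere in the region in 218 members (29.8%), and these were wider, with a median of 466 bp, and were listed in both replicates in 72.0%. Over all members the median width was 352 bp, beside 432 bp for regions with both elements, 442 bp for GATA alone and 321 bp for neither. A wider region has more sequence in which a match can occur, and the part of width in the listing was not tested.

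The members were 50.7% G and C in the window at the median, close to regions with neither element (51.7%) and above both classes with GATA (47.3% each). Their CpG content was 0.215 of that given by base composition. In introns lay 388 (53.1%), between genes 301 (41.2%) and in exons 42 (5.75%), beside 54.6, 40.4 and 5.01% of all distal regions. The median distance to the nearest start site was 9.14 kb, against 9.17 kb for all distal regions. By chromosome their share of distal regions ran from 2.07% on X to 7.99% on chromosome 15, where 44 of 551 distal regions were members, and it was 0 of 4 on Y.

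Few members had another member nearby, and members were only 5.24% of the distal regions. Another member lay within 10 kb of 26 (3.56%) and within 50 kb of 95 (13%), while any other distal region lay within 10 kb of 317 (43.4%) and within 50 kb of 585 (80.0%). The share for as many distal regions of any kind was not computed, so these counts do not show that members stand apart. The 3 members in both replicates farthest from a start site were at chr8:102024444-102024769, 485 kb from the nearest start and 761 kb from that of Cdh11, at chr6:11737463-11738152, 169 kb from Ndufa4, and in the Oxr1 intron. The first had signals of 7.92 and 12.3 and the extended NF-E2 element, and the second had 6.68 and 6.79.

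The limit of 1000 bp from a start site kept in 3 members close to it. A region 1042 bp from the start of Ftl1, the ferritin light chain, at chr7:45460926-45461141, held the extended NF-E2 element and was listed in replicate 1 only, with a signal of 5.39. A region 1063 bp from the start of the immediate early gene Ier2 was listed in replicate 2 only (4.13), and one in an intron of Nfe2l2, 1074 bp from a start of Gm24996, in replicate 1 only (4.15). Just outside were regions 995 bp from Slc2a5 (9.22, replicate 2), 979 bp from Gm27686 (5.02, replicate 2) and 978 bp from Eaf1 (11.1 and 12).

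Genes were linked to members by distance alone, where a member listed in both replicates lay within 50 kb of a gene's outermost 5′ end. This held for 605 of 21911 protein-coding genes (2.76%), while 32.3% had any distal region in both replicates that near. Of the 7071 genes with such a distal region, 8.56% had a member. Regions within 50 kb are shared by neighbouring genes, and distance does not show which gene a region acts on.

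Of the genes encoding AP-1 subunits, none of 12 had a member in both replicates nearby, beside 2.76% of all protein-coding genes. Only 4 of them had any distal region in both replicates that near, so a count of 0 is near the background. Fos, Fosb, Jun, Junb, Jund and Batf2 had a promoter region in both replicates, Fosl1 in replicate 1 only, and Fosl2, Batf, Batf3, Atf3 and Jdp2 in neither. The only member near this list was 17.1 kb upstream of Fosb, in replicate 1 at a signal of 4.35.

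Of the 14 genes for NF-E2-related factors, small and large MAF proteins and the NRF2 inhibitor KEAP1, 1 had a member in both replicates, Bach1. That member lay 14.1 kb inside the gene, at chr16:87713029-87713600, with signals of 14.4 and 13.7 at percentiles 91.3 and 83.2, and its extended NF-E2 element was 21 bp from the summit. Maff, a small MAF gene, had a member 13 kb upstream with 2 matches in replicate 2 only (5.76), and Nfe2l2, which encodes NRF2, had the intronic one given above. Promoter regions were present in both replicates at Nfe2, Nfe2l1, Nfe2l2, Bach1, Mafa, Maff and Mafk, and in replicate 2 only at Mafg and Keap1. Nfe2l3, Bach2, Maf and Nrl had none.

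Of 20 oxidative stress genes, 2 had a member in both replicates. The one 9.22 kb upstream of Hmox1, the heme oxygenase that breaks down heme, at chr8:75083756-75084402, had signals of 14.7 and 14.8, at percentiles 92.4 and 87.8. Its 2 AP-1 matches were centred 78 and 49 bp from the summit. The one 10.3 kb upstream of Abcc1, an exporter of glutathione conjugates, at chr16:14350655-14351287, had 7.37 and 9.42, with the extended element 7 bp from the summit. Both replicates therefore placed the Hmox1 region far above the median member and the Abcc1 region nearer to it. The other members near this list were in a single replicate, in an intron of the transketolase gene Tkt (6.51 in replicate 1), upstream of Taldo1 (5.14 and 6.34 for separate regions of replicate 2) and upstream of Ftl1.

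None of the 19 hemoglobin and heme synthesis genes had a member in either replicate within 50 kb, although 14 had some distal region in both. The share with a member in both replicates is 2.76% of all protein-coding genes and 8.56% of those with such a distal region. With so few genes, a count of 0 is near those shares. Of 20 genes of MAP kinase feedback and the immediate early response, 1 had a member in both, Dusp1, a phosphatase of MAP kinases. That member lay 47.1 kb from the gene's outermost start in an intron of its own annotation, with signals of 4.87 and 8.11. The nearest annotated start site of any gene was 5888 bp away. Klf6 (8.90), Ier2 and Spred2 (4.38) had members in 1 replicate.

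Of 20 cytokine receptor signalling genes, 3 had a member in both. The region 16.7 kb from the start of Cish, an inhibitor of STAT5 signalling, had 9.75 and 10.4. An intron of the kinase gene Jak1 had 6.52 and 5.59. The region assigned to Epor, the erythropoietin receptor, lay in an intron of Tmem205 39.1 kb away, with 6.29 and 3.97. Among genes with a distal region in both replicates nearby, the shares with a member were 3 of 16 for this list, 2 of 14 for oxidative stress, 1 of 6 for NF-E2-related factors and 0 of 14 for hemoglobin and heme, beside 8.56% of all such genes. Each of these rests on 3 genes or fewer.

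All 10 erythroid markers, among them Klf1, Tal1 and Kit, had a promoter region in both replicates. Of the lists for other cell types, 5 of 20 megakaryocyte, 3 of 18 mast cell, 2 of 20 granulocyte and macrophage, 0 of 20 neuron and 0 of 20 fibroblast genes had one. So did 15 of 20 oxidative stress and 14 of 20 cytokine receptor signalling genes. The share over all protein-coding genes was not computed. Of the erythroid markers Epor alone had a member in both, and Kit had one in an intron in replicate 2 only (7.95). No gene of the 5 lists for other cell types had a member in both replicates, where the share over all protein-coding genes is 2.76%. Among genes with a distal region in both replicates nearby, this was 0 of 10 megakaryocyte, 0 of 11 mast cell, 0 of 8 granulocyte and macrophage, 0 of 3 neuron and 0 of 6 fibroblast genes, and 1 of 7 erythroid markers, beside 8.56% of all such genes. None of these counts shows a contrast between cell types. Pf4 and Ppbp shared a member in replicate 1 only (5.35).

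More than 1 member in both replicates lay near 24 genes, each with 2, and 581 genes had 1. Inpp5d had its strong intronic member and a second at chr1:87648708-87648965 with the extended element, at 7.95 and 8.28. The genes Ugt1a6a, Ugt1a6b and Ugt1a7c, which encode UDP-glucuronosyltransferases, shared regions at chr1:88108950-88109510 (11.5 and 14.3) and chr1:88140473-88140828 (9.96 and 13.4). Both hold the extended element and lie 2088 and 2095 bp from a start site, in introns of the overlapping Ugt1a transcripts. The first exons of these genes are paralogous, and how the authors treated reads that align in several places is not given in the sources used here.

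Eno1, which encodes a glycolytic enolase, and Rere shared a member in an Eno1 intron (5.60 and 5.70) and one between the genes at chr4:150272580-150273253 (15 and 12.5), each with 2 AP-1 matches. Atp6v1c1, a subunit of the proton pump of lysosomes, had an intronic member with the extended element (11.5 and 12.2) and one beyond its end (6.36 and 5.84). Ndufb9, Rnf139, Tatdn1 and Gm49356 shared 2, both with the extended element (7.97 and 10.4, and 8.72 and 10.7). Slc48a1, which encodes a heme transporter, had an intronic member with the extended element (5.84 and 6.13) and a second in an intron of Hdac7 (8.90 and 10.4), and it was picked from the 24 after its values were seen. For comparison, the median of the members listed in both was 7.57 in replicate 1 and 8.88 in replicate 2.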

How the data were processed

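ATAC-seq peak lists of 2 biological replicates of G1E were used, on mm10 per the labels. The deposited signal is each peak's enrichment value, and the deposited −log10 p value ranked summits in 1 alternative. The thresholded lists were cut by the authors at an irreproducible discovery rate, per the notes deposited with the files. For the aligner and peak caller, names and versions were not given in the sources used here. Read depth is unknown. Overlapping peaks were merged, the summit with the highest signal was kept, and start sites came from GENCODE M21. Motifs were matched exactly on both strands in 201 bp windows read from the RefSeq assembly GRCm38.p6. Named regions were the 10 strongest members in both replicates, those with 3 or more AP-1 matches, the 3 farthest from a start site and those at the thresholds. Named genes were the 2 per list with the strongest member and those with the most members. Members, 12 gene lists and 16 motifs were chosen with earlier results of these data known. Scripts used Python 3.11.15, numpy 2.4.6 and pandas 2.3.3, and were tested on simulated data. Alternatives changed the window, lists, summit, distance, motif strings and replicates. Of the regions and genes under this rule, a few are not reported here.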

Additional observations from a re-analysis of the deposited data

How the results depend on the processing

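The count of members was 1564 with the lenient lists, 266 in the stronger 50% of regions and 391 with regions in both replicates only. The share listed in both was 43.4% with the lenient lists and 88.0% in the stronger 50%. The percentile difference from other distal regions was -1.19 with windows of 50 bp to each side and reversed to 3.10 with the lenient lists. The share of matches within 25 bp of the summit was 60.4% with the 50 bp windows, which leave no room beyond, 40.2% with the lenient lists, 46.2% in the stronger 50% and 40.2 to 43.3% without 1 replicate. The share with the extended NF-E2 element was 31.5% with 50 bp windows, 27.6% with lenient lists, 35.7% in the stronger 50%, 32.9% with summits by −log10 p, 33.8% over 2000 bp from a start site, 31.5% with AP-1 as TGANTCA, 32.0% with GATA as GATAA, 33.8% in both replicates only and 33.0 to 33.2% without 1 replicate. The RUNX share was, in that order, 16.8, 23.4, 26.3, 25.5, 24.8, 25.4, 24.5, 26.3 and 25.7 to 26.0%. Genes near members numbered 973 with lenient lists, 357 in the stronger 50%, 303 within 25 kb and 1158 within 100 kb. Of 68 values under an alternative, 33 stayed within a margin, 34 did not and 1 reversed. The margin was 1.5 times the main value for counts and the exact Clopper-Pearson interval, 49.8 to 57.2%, for the share listed in both. For the other results it was the SD between replicates. That SD was only 0.0176 points for the extended NF-E2 share and 0.00271 points for the RUNX share. Both replicates' shares used the same windows and many of the same members, so this SD is small in part by construction. Every alternative of these shares fell outside it, even 32.9% against 32.8% and 25.5% against 25.3%. The count of 34 therefore says little about how stable these shares are. Fewer regions or a smaller window change counts by construction, and otherwise the cause was not tested. No paired analysis was possible because there is only 1 group. The unknown depth limits what a missing peak can show.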
